A study of Homo sapiens with 12 samples.

Results

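The cathepsin genes described here are a list of 10 (CTSA, CTSB, CTSC, CTSD, CTSF, CTSH, CTSL, CTSO, CTSS and CTSZ), out of 17085 genes in the deposited tables and out of 14 with a symbol of CTS and 1 letter. The list was made with earlier results of these data known. RNA was sequenced from 786-O, an established human renal carcinoma cell line of wild-type label, after 24 h with vehicle (DMSO), with the mTOR inhibitor everolimus, with the DNA methyltransferase inhibitor SGI-1027 at 1.5 µM, or with the pair, and each of the 4 groups held 3 libraries. The combination group received 5 µM everolimus. For everolimus alone the sample characteristics say 5 µM but the treatment protocol says 10 µM, while the methods of the study give everolimus the same dose alone and in the combination. Values that set the combination beside everolimus alone may therefore not be matched for dose. No source says whether the 3 libraries per group were from separate cultures, so the p values measure only the spread between these libraries, which may be technical.

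Cathepsins are the main proteases of the lysosome. They are made as inactive proenzymes in the endoplasmic reticulum, carried to the lysosome largely through mannose 6-phosphate receptors, and activated there by cleavage at acid pH. CTSD is an aspartic protease and CTSA a serine carboxypeptidase, whereas the others of the set are papain-like cysteine proteases that cystatins inhibit. In renal tubular cells they degrade proteins taken up from outside and material delivered by autophagy. Many lysosomal genes carry in their promoters the motif CACGTG, or its extended form TCACGTG, which factors of the MiT/TFE family such as TFEB can bind.

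The promoter sequences are shown first for 3 members, because CTSD and CTSA were the members with this motif that were expressed well, and CTSC was the member that fell with treatment. RefSeq promoter windows (GRCh38.p14, 250 bases before to 50 bases after the gene start) matched 7 of the 10 members (CTSA, CTSC, CTSD, CTSF, CTSH, CTSL and CTSZ), and not CTSB, CTSO and CTSS. The 150 bases before the gene start are printed on the gene's own strand, with matches to CACGTG or TCACGTG on either strand in capitals. The positions are chr11:1763928-1764077 on the minus strand for CTSD, chr20:45891185-45891334 on the plus strand for CTSA and chr11:88337737-88337886 on the minus strand for CTSC.
CTSD: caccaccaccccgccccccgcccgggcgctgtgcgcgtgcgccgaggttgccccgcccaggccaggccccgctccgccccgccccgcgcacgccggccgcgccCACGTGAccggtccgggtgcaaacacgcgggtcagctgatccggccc
CTSA: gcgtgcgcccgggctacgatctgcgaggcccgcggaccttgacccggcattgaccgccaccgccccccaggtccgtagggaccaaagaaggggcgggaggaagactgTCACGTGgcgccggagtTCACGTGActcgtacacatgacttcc
CTSC: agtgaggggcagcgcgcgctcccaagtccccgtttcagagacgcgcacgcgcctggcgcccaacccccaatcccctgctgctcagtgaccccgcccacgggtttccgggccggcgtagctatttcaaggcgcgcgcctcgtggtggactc
CACGTG stood 2 times in the CTSA window, at bases -42 and -25 from the gene start, 1 time in the CTSD window at base -47, and 2 times in the CTSF window, at bases -123 and -51. No match was found in the windows of CTSC, CTSH, CTSL and CTSZ. Of 35116 promoter windows of this length, 7.26% held CACGTG, and 3.71% held TCACGTG, each of which contains CACGTG. Among the 15288 windows of tested genes the shares were higher, at 9.2% and 5.19%. Another motif, GAAANNGAA, the core of interferon-stimulated response elements, was in none of the 7 windows and in 8.11% of all windows. Members without CACGTG in the window moved both ways (CTSZ and CTSL up, CTSC down, below), and these letter matches are a description, with no binding measured here.

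The libraries held 37046231 to 41516976 counts, and TMM scaling factors lay between 0.99 and 1.01. Levels are given as TMM-normalised CPM (counts scaled to a common library size) within a gene, and as the FPKM that the authors deposited (fragments scaled by gene length and library size) wherever genes are set beside each other. Of the 10 renal carcinoma markers examined, CA9 stayed under 1 CPM in every library, and the summed level of the 10 ranged from 8885 to 10626 CPM, its lowest values in DMSO. Most of that sum was VIM at 5796 to 7464 CPM, which rose with treatment. Of the 10, 2 were called higher and 5 lower with everolimus, 4 and 2 with SGI-1027, and 3 and 5 with both drugs. Among all tested genes 27.2% were called higher and 29.2% lower with everolimus, 32% and 30.6% with SGI-1027, and 32.8% and 33.4% with both. KRT8, among the lower ones, went from a mean of 1232 CPM in DMSO to 943 CPM with both. Of 12 leukocyte markers, 10 were in the table and 9 of these stayed under 1 CPM in every library. Their sum was 5.55 to 6.47 CPM in DMSO, 5.78 to 6.64 CPM with everolimus, 4.36 to 5.34 CPM with SGI-1027 and 3.76 to 4.30 CPM in the combination. Nearly all of this sum was CSF1R at 121 to 231 counts per library, and PTPRC, which encodes the pan-leukocyte CD45, had 0 or 1 counts in each library.

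Of the 10 members, 9 passed the expression filter of edgeR and were tested (quasi-likelihood test, Benjamini-Hochberg adjustment over all 12841 tested genes, call at an adjusted p under 0.05). In untreated cells their abundance spanned a wide range. In DMSO, CTSZ had the highest mean level at 501 ± 2.28 FPKM and CTSD the second highest at 444 ± 13.1 FPKM (SD, n = 3 here and for each mean below). CTSL (75.8 ± 2.88 FPKM), CTSB (72.8 ± 2.73 FPKM) and CTSA (54.1 ± 1.66 FPKM) followed, and CTSL and CTSB exchanged places between libraries. CTSC stood at 16.3 ± 0.694 FPKM, while CTSS, CTSH and CTSO were near the lower end at 1.15 ± 0.143, 1.11 ± 0.0495 and 0.917 ± 0.104 FPKM. CTSF was close to absent, with 0 to 6 counts in each of the 12 libraries, and it is given no fold change.

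The main change was a rise of most members with each drug and a larger rise with both, against a fall of CTSC. In bulk RNA, fewer cells with a transcript and less of it per cell cannot be told apart. Everolimus raised 6 of the 9 tested members and lowered 1, SGI-1027 raised 8 and lowered 1, and the combination likewise raised 8 and lowered 1. These counts stand beside a broad response: of all tested genes 27.2% were called higher and 29.2% lower with everolimus, 32% and 30.6% with SGI-1027, and 32.8% and 33.4% with the combination. The median log2 fold change of the tested members was 0.35 with everolimus, 0.58 after SGI-1027 and 0.72 under the combination, while the medians of all tested genes were 0.0013, 0.017 and 0.0074. Members were chosen with earlier results of these data known, so setting their counts and medians beside all tested genes is a description and not a test. Of the cathepsins outside the set 3 were tested, and 1 was called higher in each treated group, with medians of 0.46, 0.095 and 0.073. The study's cut-off for a differentially expressed gene (DEG: p under 0.05 and a log2 fold change of 1 or more in size) was applied to the edgeR fit. The DEGs named here are therefore not the study's own list. CTSO was a DEG with everolimus, CTSD and CTSO were with SGI-1027, and CTSD, CTSO and CTSS were with the combination. That is 1, 2 and 3 of 9, where the share of upregulated DEGs among all tested genes was 3.89%, 6.25% and 7.25%. No member was a downregulated DEG by edgeR, DESeq2 or limma-trend, a class that took 0.903%, 1.07% and 2.71% of tested genes.

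**Figure D1:**
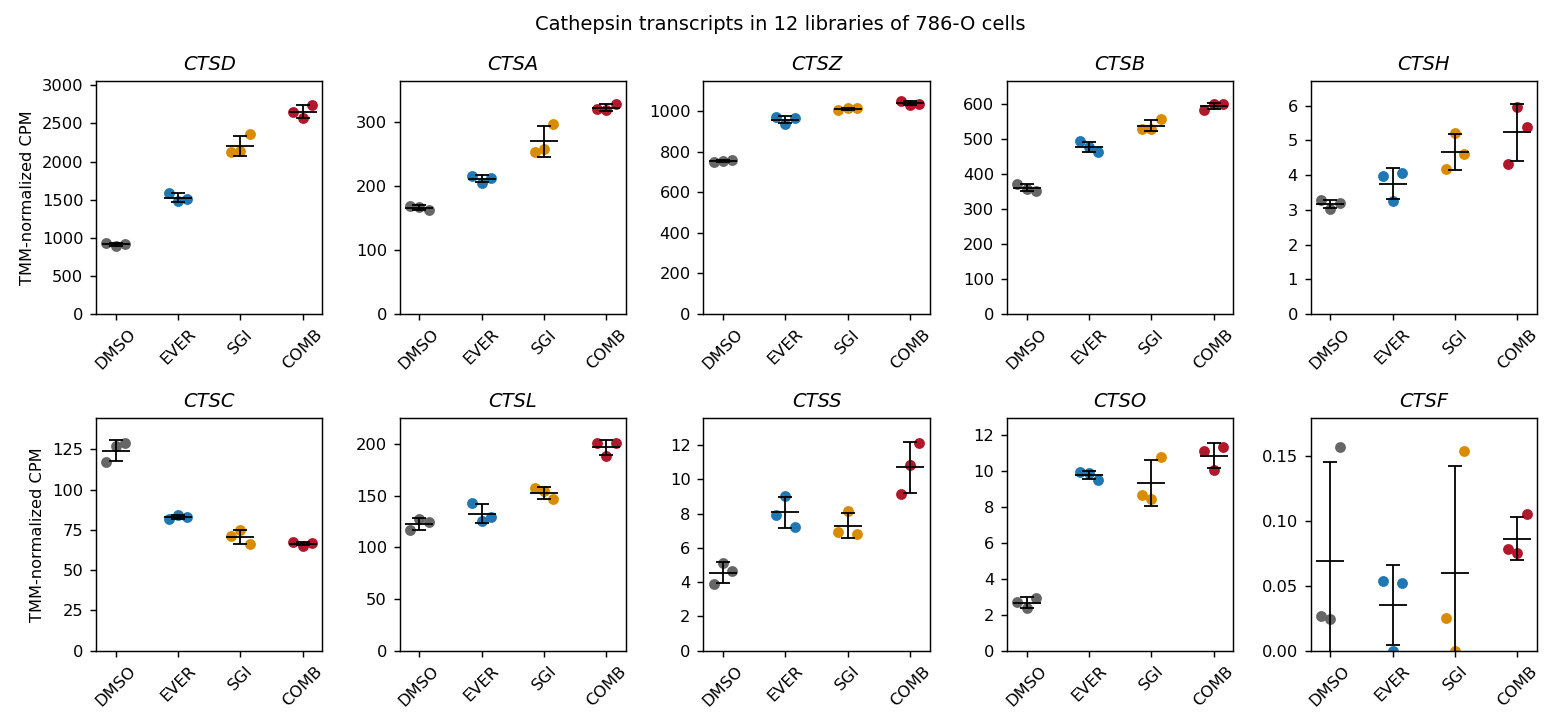
TMM-normalised CPM of the 10 cathepsin genes (y axes, each from 0) in the 3 libraries of each group (EVER, everolimus; SGI, SGI-1027; COMB, both drugs), where points are libraries and black marks the mean ± SD, cut at 0 for CTSF. CTSD rose from 894 to 935 CPM in DMSO to 2572 to 2738 CPM with both drugs, CTSC fell, CTSO was near its highest level with either drug alone, and CTSF stayed at or under 0.157 CPM.

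CTSD, the major aspartic protease of the lysosome, made the largest gain in CPM of the 9 tested members. Its 3 libraries gave 935, 894 and 918 CPM in DMSO, 1592, 1477 and 1512 CPM with everolimus, 2122, 2144 and 2360 CPM with SGI-1027, and 2656, 2572 and 2738 CPM with both drugs. The 4 groups did not overlap, and each step in this order was called. The log2 fold changes against DMSO were 0.74 ± 0.04 (SE) with everolimus, 1.27 ± 0.04 with SGI-1027 and 1.54 ± 0.04 with both, the last being 2.90-fold (adjusted p = 2.9e-15, edgeR). SGI-1027 exceeded everolimus by 0.53 (adjusted p = 3.9e-08), and the combination exceeded SGI-1027 by 0.27 (adjusted p = 0.00016). In the GENCODE v29 annotation 41.7% of the exon bases of CTSD also belong to AC068580.4, a protein-coding gene on the same strand, and 15.8% to an antisense gene. Neither of these genes is in the deposited tables, so whether all such reads were counted for CTSD is uncertain.

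CTSA is the serine carboxypeptidase also known as protective protein, which holds the sialidase NEU1 and the beta-galactosidase GLB1 in a stable complex. Its libraries gave 169, 166 and 161 CPM in DMSO, 216, 204 and 213 CPM with everolimus, 253, 257 and 297 CPM with SGI-1027, and 319, 318 and 328 CPM with both drugs. As for CTSD, the groups did not overlap and each neighbouring pair differed. The log2 fold changes against DMSO were 0.35 ± 0.05, 0.70 ± 0.05 and 0.96 ± 0.05 (adjusted p = 1.1e-05, 1.2e-09 and 1.1e-11, edgeR). The partners of the complex were also higher with both drugs, NEU1 by 1.35 ± 0.04 on the log2 scale and GLB1 by 0.46. Exons of NEURL2 and PLTP, on the opposite strand, cover 17.7% and 3.42% of the CTSA exon bases. NEURL2 and PLTP themselves had 1 to 18 and 3 to 20 counts per library, against 6167 to 12676 for CTSA.

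Among the cysteine proteases that trim protein ends, CTSZ, CTSB and CTSH rose and CTSC fell. CTSZ, a carboxypeptidase and the most abundant member in DMSO by FPKM, was at 751, 755 and 760 CPM in DMSO, 971, 937 and 965 CPM with everolimus, 1003, 1014 and 1013 CPM with SGI-1027, and 1048, 1031 and 1036 CPM with both drugs. All treated libraries lay above all DMSO libraries, and the treated groups lay close to each other without overlap. The log2 fold changes were 0.34 ± 0.03, 0.42 ± 0.03 and 0.46 ± 0.03 (adjusted p = 3.0e-08, 1.4e-09 and 2.7e-10, edgeR). SGI-1027 was not called different from everolimus (0.08, 95% interval 0.01 to 0.14, adjusted p = 0.077), nor the combination from SGI-1027 (0.04, 95% interval -0.02 to 0.10, adjusted p = 0.41). The combination was called higher than everolimus (0.12, 95% interval 0.05 to 0.18, adjusted p = 0.0050, edgeR).

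CTSB, which acts both as an endopeptidase and as a dipeptidyl carboxypeptidase, rose in clear steps. Its libraries held 371, 358 and 351 CPM in DMSO, 493, 476 and 464 CPM with everolimus, 527, 529 and 557 CPM with SGI-1027, and 582, 599 and 599 CPM with both drugs. The groups did not overlap and each neighbouring pair differed, with log2 fold changes against DMSO of 0.41 ± 0.04, 0.58 ± 0.04 and 0.72 ± 0.04 (adjusted p = 4.3e-08, 2.6e-10 and 8.5e-12, edgeR).

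CTSH, an aminopeptidase, was scarce and its spread was wide. It gave 3.27, 3.04 and 3.19 CPM in DMSO, 3.97, 3.25 and 4.05 CPM with everolimus, 4.19, 5.20 and 4.62 CPM with SGI-1027, and 4.33, 5.97 and 5.39 CPM with both drugs. The everolimus library at 3.25 CPM fell among the DMSO libraries, and the difference of 0.24 ± 0.15 was not called (adjusted p = 0.18, edgeR). SGI-1027 raised CTSH by 0.56 ± 0.15 and the combination by 0.72 ± 0.15 (adjusted p = 0.0031 and 0.00027, edgeR). The combination was 0.48 ± 0.14 above everolimus, but this call was lost without everolimus replicate 2 (0.38, adjusted p = 0.069, edgeR) or without combination replicate 2 (0.38, adjusted p = 0.074, edgeR).

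CTSC, the dipeptidyl peptidase that activates granule serine proteases of immune cells, was the only one of the 9 tested members to fall against DMSO. Its libraries gave 117, 127 and 129 CPM in DMSO, 81.8, 83.9 and 83.2 CPM with everolimus, 71.2, 74.7 and 66.2 CPM with SGI-1027, and 67.2, 65.1 and 67.1 CPM with both drugs. No treated library reached the DMSO range, and the SGI-1027 and combination libraries overlapped. The level was 66.8% of DMSO with everolimus, 56.9% with SGI-1027 and 53.5% with both, or log2 fold changes of -0.58 ± 0.05, -0.81 ± 0.05 and -0.90 ± 0.05 (adjusted p = 1.4e-08, 1.1e-10 and 1.7e-11, edgeR). SGI-1027 was lower than everolimus (adjusted p = 0.0022), while the combination and SGI-1027 differed by -0.09 (95% interval -0.19 to 0.01, adjusted p = 0.24).

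**Figure D2:**
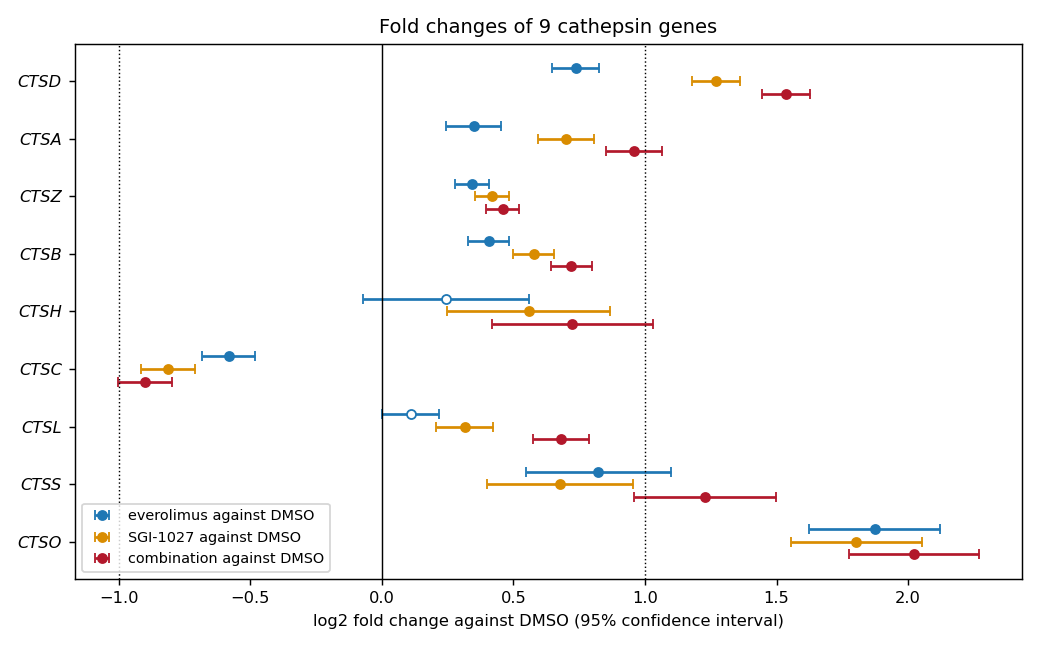
Log2 fold change against DMSO (x axis) of the 9 tested cathepsin genes (y axis) in each treated group, where points are edgeR estimates, bars are 95% confidence intervals, filled points have an adjusted p under 0.05, and dotted lines mark -1 and 1. CTSC alone lies left of 0 at -0.58 to -0.90, CTSO lies farthest right at 1.80 to 2.02, and the open points are CTSH and CTSL with everolimus.

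Of the cysteine endopeptidases, CTSL was higher with SGI-1027 and with the combination. CTSL, a broad endopeptidase of the lysosome, gave 117, 128 and 124 CPM in DMSO, 143, 125 and 130 CPM with everolimus, 157, 154 and 146 CPM with SGI-1027, and 201, 189 and 201 CPM with both drugs. The everolimus libraries overlapped with DMSO, whereas all SGI-1027 and all combination libraries lay above both. The change with everolimus was 0.11 ± 0.05 on the log2 scale and was not called (95% interval 0.0021 to 0.22, adjusted p = 0.076, edgeR). It was called with upper-quartile scaling (0.18, adjusted p = 0.0057), without everolimus replicate 2 (0.15, adjusted p = 0.033) and without SGI-1027 replicate 3 (0.11, adjusted p = 0.047), but it was at 0.05 (adjusted p = 0.42) without everolimus replicate 1 and at 0.07 (adjusted p = 0.27) without DMSO replicate 1. SGI-1027 raised CTSL by 0.31 ± 0.05 and the combination by 0.68 ± 0.05 (adjusted p = 3.3e-05 and 1.5e-09, edgeR), and the combination exceeded SGI-1027 by 0.37 ± 0.05 (adjusted p = 3.6e-05).

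CTSS, an endopeptidase that stays active at neutral pH and processes the invariant chain in antigen-presenting cells, was at a low level. Its libraries gave 3.92, 5.10 and 4.66 CPM in DMSO, 7.92, 9.06 and 7.24 CPM with everolimus, 6.96, 8.15 and 6.82 CPM with SGI-1027, and 9.17, 10.8 and 12.1 CPM with both drugs. The single-drug groups overlapped with each other (SGI-1027 against everolimus -0.15, 95% interval -0.41 to 0.12, adjusted p = 0.43), and both lay above DMSO and below the combination. The log2 fold changes against DMSO were 0.82 ± 0.13, 0.68 ± 0.13 and 1.23 ± 0.13 (adjusted p = 3.4e-05, 0.00022 and 1.3e-07, edgeR). The combination exceeded everolimus by 0.41 ± 0.12 (adjusted p = 0.012), a call lost without everolimus replicate 3 (0.33, adjusted p = 0.067, edgeR) or combination replicate 3 (0.31, adjusted p = 0.084, edgeR).

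CTSO, a little-studied papain-like protease, had the highest fold change of the tested members in each treated group. It gave 2.71, 2.36 and 2.96 CPM in DMSO, 9.97, 9.89 and 9.51 CPM with everolimus, 8.70, 8.48 and 10.8 CPM with SGI-1027, and 11.2, 10.1 and 11.4 CPM with both drugs. The 97 to 113 counts per library in DMSO became 313 to 433 with treatment. All treated libraries lay above all DMSO libraries, and the SGI-1027 libraries overlapped with both other treated groups. This was 3.66-fold with everolimus, 3.49-fold with SGI-1027 and 4.07-fold with both, or log2 fold changes of 1.87 ± 0.12, 1.80 ± 0.12 and 2.02 ± 0.12 (adjusted p = 4.2e-10, 3.8e-10 and 4.5e-11, edgeR). The treated groups were not told apart by the tests: the combination differed from everolimus by 0.15 (95% interval -0.06 to 0.36, adjusted p = 0.26) and from SGI-1027 by 0.22 (95% interval 0.0061 to 0.43, adjusted p = 0.15). Without SGI-1027 replicate 3 the latter difference was called (0.34, adjusted p = 0.023, edgeR).

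CTSF, the remaining endopeptidase of the set, gave 1, 1 and 6 counts in DMSO, 2, 0 and 2 with everolimus, 1, 0 and 6 with SGI-1027, and 3, 3 and 4 with both drugs, so no difference was detectable at this depth. Its promoter window held CACGTG as the windows of CTSA and CTSD did.

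The balance among cathepsin transcripts shifted towards CTSD. The summed level of the 10 genes was 1155 to 1184 FPKM in DMSO, 1612 to 1688 FPKM with everolimus, 2006 to 2118 FPKM with SGI-1027 and 2324 to 2414 FPKM with both drugs, with no overlap between groups. Relative to DMSO the mean sum was 1.41-fold, 1.75-fold and 2.03-fold. CTSD made up 38.0% ± 0.640 of this sum in DMSO, 45.1% ± 0.434 with everolimus, 52.3% ± 1.21 with SGI-1027 and 55.0% ± 0.604 with both. CTSZ fell in share from 42.9% ± 0.366 to 38.7% ± 0.581, 32.7% ± 1.06 and 29.4% ± 0.558, although its own level rose. By FPKM, CTSZ was thus first and CTSD second in all 3 DMSO libraries, and CTSD was first and CTSZ second in all 9 treated libraries. By CPM, which is not scaled by gene length, CTSD was above CTSZ in the DMSO libraries as well. Among the scarce members CTSO moved from the ninth to the seventh place in each treated library. The share of CTSC went from 1.40% ± 0.0760 to 0.373% ± 0.00353 with both drugs. The sums depend on the gene lengths behind the FPKM values, and the part of reads shared between CTSD and its overlapping gene was not tested.

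**Figure D3:**
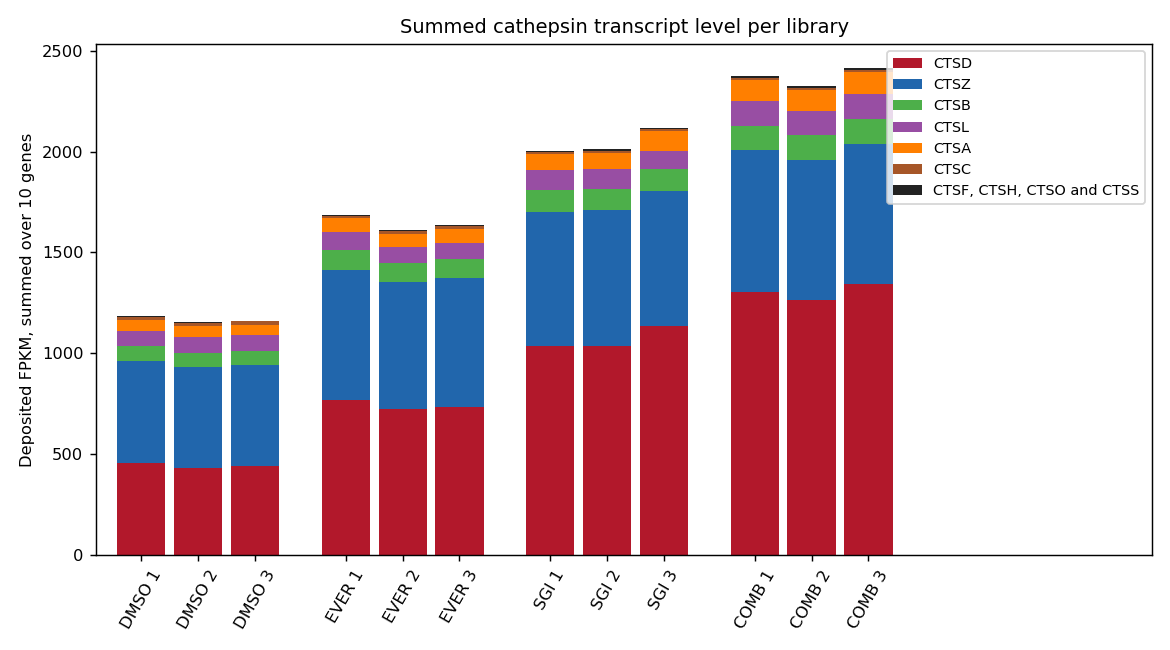
Deposited FPKM summed over the 10 cathepsin genes (y axis) in each of the 12 libraries (x axis, named by group and replicate), stacked by gene. The sum climbs from 1155 to 1184 FPKM in DMSO to 2324 to 2414 FPKM with both drugs, and most of the gain is the CTSD block, 38.0% of the sum in DMSO and 55.0% with both drugs.

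The comparison of the combination with each single drug asks what the second drug added. Against everolimus alone 7 of 9 tested members were higher and 1 was lower, with 20.1% and 19.2% of all tested genes called in these directions. Against SGI-1027 alone 5 were higher (CTSA, CTSB, CTSD, CTSL and CTSS) and 0 lower by edgeR, DESeq2 and limma-trend, with 9.4% and 10.2% of tested genes called. CTSC was the only tested member below SGI-1027, with an unadjusted p of 0.089, so that 0 members were lower at an unadjusted p under 0.05 too. The 4 others, CTSC, CTSH, CTSO and CTSZ, differed from SGI-1027 by -0.09, 0.17, 0.22 and 0.04 on the log2 scale. SGI-1027 set against everolimus was higher for 4 members (CTSA, CTSB, CTSD and CTSL), lower for CTSC and not called for CTSH, CTSO, CTSS and CTSZ, and the call of CTSL was lost without everolimus replicate 2 (0.16, adjusted p = 0.053, edgeR). In this contrast 13% of tested genes were called higher and 9.51% lower.

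An interaction contrast tested whether the log2 fold change of the combination equalled the 2 single-drug log2 fold changes added together, and it carries the same uncertainty about the everolimus dose. The combination lay below that sum for CTSO (-1.65 ± 0.16, adjusted p = 1.7e-07, edgeR), CTSD (-0.47 ± 0.06, adjusted p = 5.1e-06), CTSZ (-0.30 ± 0.04, adjusted p = 1.6e-05) and CTSB (-0.26 ± 0.05, adjusted p = 0.00045). It lay above the sum for CTSC (0.49 ± 0.07, adjusted p = 1.5e-05), whose falls were less than additive, and for CTSL (0.26 ± 0.07, adjusted p = 0.0067), whose rise was more than additive. CTSA (-0.09), CTSH (-0.08) and CTSS (-0.27) were not called, with adjusted p of 0.31, 0.78 and 0.23 and 95% intervals of -0.24 to 0.06, -0.51 to 0.35 and -0.65 to 0.11. Of all tested genes 22.1% were called below and 23.6% above their sum, beside 4 and 2 of the 9 members. With upper-quartile scaling the share of called genes above their sum was 39.5% in place of 51.7%, and for everolimus against DMSO the share called higher was 60.7% in place of 48.2%.

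Additivity of gains in CPM was looked at too, a scale chosen after the values were seen and given with no test. CTSL gained 74.3 CPM with both drugs, where the single-drug gains summed to 39.6 CPM, a difference of 34.7 ± 8.20 (SE). CTSD gained 1739 CPM where the single gains summed to 1904 CPM, a difference of -165 ± 96.8. CTSA gained 156 CPM beside a sum of 149 CPM. The combination of CTSO fell short of its sum by 5.57 ± 0.870 CPM, and that of CTSZ by 174 ± 12.6 CPM. CTSL was the only tested member with a rise above the sum on the log2 scale, and it was above it on the CPM scale as well.

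**Figure D4:**
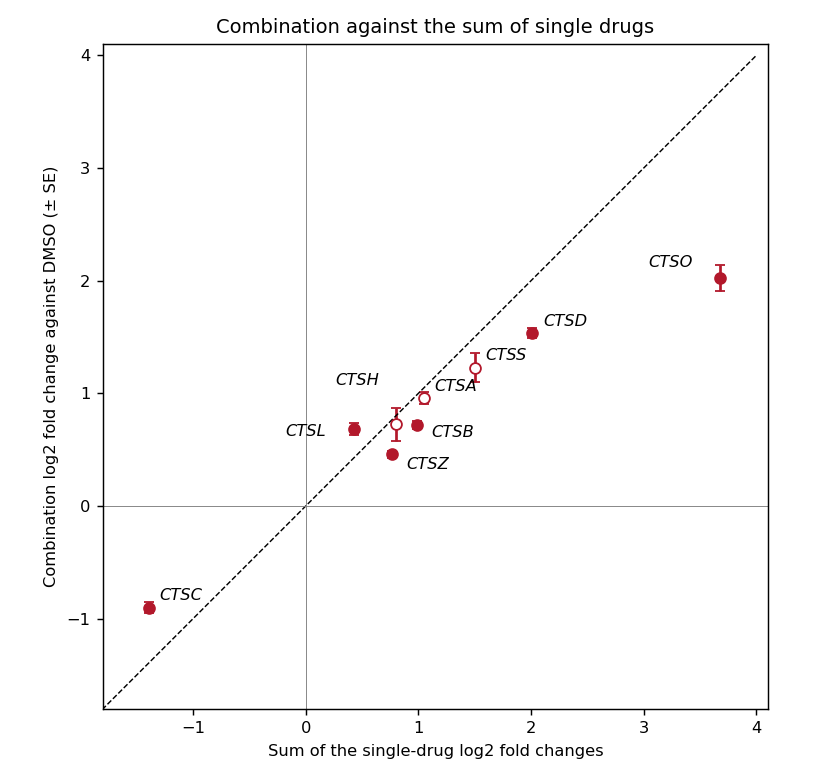
Log2 fold change of the combination against DMSO (y axis, ± SE) plotted against the added log2 fold changes of both single drugs (x axis) for the 9 tested cathepsin genes; the dashed line is equality, and filled points have an interaction with an adjusted p under 0.05. CTSO, CTSD, CTSB and CTSZ lie below the line, CTSL and CTSC above it, and CTSA, CTSH and CTSS are open.

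Cathepsins outside the set are described next. Members were chosen with earlier results of these data known, so a difference between the set and these genes may come from that choice. CTSW, known from cytotoxic lymphocytes, was 1.03 ± 0.10 higher on the log2 scale with everolimus (9.38 to 9.73 CPM beside 4.48 to 4.86 CPM in DMSO), 0.56 ± 0.10 higher with both drugs, and at 0.10 ± 0.11 with SGI-1027 (adjusted p = 0.46, edgeR). CTSK, the collagen-degrading protease of osteoclasts, was 0.70 ± 0.22 higher with SGI-1027 (adjusted p = 0.010, edgeR) and at 0.07 ± 0.23 with both (adjusted p = 0.79). CTSV, a close relative of CTSL, was not called in any group against DMSO, at 0.11, -0.07 and -0.06. CTSE had 0 to 4 counts per library, and CTSG was not analysed here.

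The enzymes and carriers that cathepsins work with were read from lists of known roles. Of 7 other lysosomal peptidases 5 were tested, and 4 were higher with everolimus, 5 with SGI-1027 and 5 with both drugs, and 0 lower by edgeR, also at an unadjusted p under 0.05. Among all tested genes 27.2%, 32% and 32.8% were higher in these groups and 29.2%, 30.6% and 33.4% lower, and the same shares apply to the lists that follow. TPP1, a tripeptidyl peptidase, rose by 0.65 ± 0.06, 1.23 ± 0.06 and 1.61 ± 0.06, CPQ, a carboxypeptidase, by 0.96 ± 0.08, 0.96 ± 0.08 and 1.07 ± 0.08, and DPP7, a dipeptidyl peptidase, by 0.56 ± 0.07 with SGI-1027 and 0.79 ± 0.07 with both. SCPEP1 and PRCP, both serine carboxypeptidases, completed the 5 with both drugs at 0.62 and 0.23, named after their values were seen. The list median was 0.79 with both drugs, beside 0.0074 over all tested genes. Of 25 genes listed for the processing and sorting of lysosomal enzymes, all tested, 12 were higher and 4 lower with both drugs, 8 and 6 with everolimus, and 8 and 5 with SGI-1027, with medians of 0.13, 0.035 and 0.054. The list included NEU1 and GLB1, enzymes that CTSA holds in a complex, and both were higher with both drugs. The 12 higher genes are therefore not all genes of processing or sorting. The counts with either single drug were near or below the shares over all tested genes. NEU1, PSAP, which encodes the saposins, and LRP1, an endocytic receptor, had the smallest p with both drugs, with log2 fold changes of 1.35 ± 0.04, 1.01 ± 0.04 and 0.86 ± 0.05. The 4 lower genes, named after their values were seen, were AP1B1 (-0.59), AP1G1 (-0.35) and AP1M1 (-0.24), subunits of the AP-1 adaptor, and GGA2 (-0.58), another adaptor that sorts mannose 6-phosphate receptors. AP1S1, a further AP-1 subunit, was not called lower, with means of 94.8 CPM in DMSO and 105 CPM with both drugs. GGA1 and GGA3 were not called lower either.

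Of 25 listed protease inhibitors, cystatins and serpins among them, 20 were in the table and 9 were tested, and 3 were higher and 0 lower with everolimus, 5 and 0 with SGI-1027 and 5 and 1 with both drugs by edgeR, where the counts of 0 were 0 also at an unadjusted p under 0.05. Serpins were counted with the cystatins, so these are not counts of inhibitors of the members. The 3 of 9 with everolimus were near the 27.2% over all tested genes. CST7 and SERPINA3, at 3 to 7 counts per library in DMSO, passed the filter through treated groups where they were higher. They could hardly be called lower, so the split into higher and lower is partly fixed in advance. CSTB, the cytosolic cystatin B, was at 0.0022 ± 0.04 with everolimus (adjusted p = 0.97, edgeR) and rose by 0.28 ± 0.04 with SGI-1027 and 0.66 ± 0.04 with both. CST3, the secreted cystatin C, rose by 0.39 ± 0.04, 0.49 ± 0.04 and 0.57 ± 0.04. CST7, cystatin F, which acts inside lysosomes, had 3 to 5 counts per library in DMSO and 4 to 8 with everolimus. It had 18 to 24 with SGI-1027 and 40 to 50 with both drugs. The log2 fold change of 3.39 ± 0.36 with both drugs rests on that DMSO level. It is given without a p, because the gene was tested only through the groups where it was high. SERPINB1 was higher by 0.39, 0.47 and 0.47 in the 3 treated groups and SERPINB9 lower at -0.45 with both drugs, and these 2 serpins were named after their values were seen. SERPINA3, a serpin known for blocking the neutrophil protease CTSG, was also scarce, at 3 to 7 counts in DMSO and 10 to 20 with everolimus. Its log2 fold change of 1.89 with everolimus has the same limit as that of CST7. SERPING1, the C1 inhibitor, was 1.17 higher with SGI-1027 (adjusted p = 0.0099, edgeR). The summed FPKM of the 8 cysteine members was 2.04 to 2.24 times that of CSTB and CST3 in DMSO, 2.52 to 2.59 times with everolimus, 2.19 to 2.39 times with SGI-1027 and 1.89 to 1.98 times with both drugs. This ratio, chosen after the values were seen, was therefore highest with everolimus and lowest with both drugs.

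For each tested member the gene with the most similar course over the 12 libraries was sought among 11464 genes (mean count of 50 or more), by Pearson's r of log2 CPM. The same gene, GRN, which encodes the lysosomal protein progranulin, came first for both CTSD (r = 0.996) and CTSB (r = 0.995). The first genes were DKK3 for CTSA (0.994), SUMF2 for CTSZ (0.998), EIF4A1, a translation initiation factor, for CTSC (0.994), ERAP1, an aminopeptidase of the endoplasmic reticulum, for CTSO (0.994), CLDN4 for CTSL (0.984), GPATCH2L for CTSS (0.982) and CTH for CTSH (0.941). The 12 points fall into 4 treatment groups, and many genes changed between these groups, so high values of r are common here.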

How the data were processed

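RNA from 12 libraries of 786-O cells in 4 groups was measured. The deposited tables give raw counts by gene symbol and, computed by the authors, FPKM values of the same genes. The aligner, counter and annotation are not given in the sources used here. The labels name GRCm38 and mm10, mouse builds, for human samples. The labels name an RNeasy extraction and a SMARTer kit, whereas the study's methods name TRIzol and a stranded TruSeq kit, so whether strand was used in counting is unknown.

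The counts were fitted with edgeR 4.0.16 (R 4.3.3): filterByExpr by group (12841 of 17085 genes kept), TMM factors, 1 quasi-likelihood fit over all 12 libraries (prior count 0.125 for fold changes) and Benjamini-Hochberg adjustment over all tested genes. SE is the absolute log2 fold change divided by the square root of F. The procedure was tested on simulated data. Members and lists were chosen with earlier results of these data known. Named genes were all members, the other cathepsins, listed genes that were DEGs against DMSO in any group or had the 3 smallest p with both drugs, and the most similar gene of each member. GLB1 was named after its values were seen, as a partner of CTSA.

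Alternatives were DESeq2 1.42.0, upper-quartile factors, no filter, at least 10 counts in every library, the replicate number as a block, only the groups compared, limma-trend (limma 3.58.1) on log2(FPKM + 1) and log2(FPKM + 0.1), CPM in place of FPKM for shares, and each library left out in turn. With 37046231 to 41516976 counts per library, precision rested mainly on the spread of 3 libraries.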

Additional observations from a re-analysis of the deposited data

Results flagged for a closer look

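Of the 9 tested cathepsins, 6 had a response to the drug pair that differed from the sum of the single-drug responses, by a test of that difference itself (edgeR interaction term, adjusted over all tested genes). On the log2 scale the difference was -1.65 for CTSO (adjusted p = 1.7e-07), -0.47 for CTSD (5.1e-06), -0.30 for CTSZ (1.6e-05), -0.26 for CTSB (0.00045), 0.49 for CTSC (1.5e-05) and 0.26 for CTSL (0.0067). For comparison, 23.6% of all tested genes were called above and 22.1% below their sum. A different everolimus dose in the single-drug group, which the labels give in 2 ways, cannot be told apart from these differences. Groups of 3 libraries were not searched for outlying libraries.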

How the results depend on the processing

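Under 8 other ways of processing and with 12 libraries left out in turn, no called member changed direction. The uncalled CTSH interaction (-0.08) turned to 0.0052 without SGI-1027 replicate 2 and to 0.04 without combination replicate 1. Of the member results, 1242 kept their call, 5 lost it and 4 gained it, and the 9 changes are given in the report for CTSL, CTSH, CTSS and CTSO. SGI-1027 against everolimus was added to this comparison after the data were seen. Members called higher ranged from 6 to 7 with everolimus and were 8 with SGI-1027 and 8 with both drugs in each setting. DEGs with both drugs numbered 3, but 2 with limma-trend on log2(FPKM + 1) and 4 with upper-quartile factors, where CTSA reached 1.01. A pseudocount of 1 lowered the fold changes of the scarce members, that of CTSO with both drugs to 1.32. Computed on CPM in place of FPKM, CTSD had 37.3% of the summed level in DMSO and 54.2% with both drugs, and CTSZ 30.8% and 21.2%, so the first place of CTSZ in DMSO holds only per length.

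Replicate numbers were shared between groups. The deviations of same-numbered libraries from their group means correlated at r = -0.18 to 0.036 in 18 pairs, beside -0.14 to 0.23 in 36 pairs of unlike number. Whether a number marked a shared culture or day was not tested. With the replicate block the members called higher were 6, 8 and 8, and no member's call changed. CTSF, at 0 to 6 counts per library, was too scarce at this depth for a comparison.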

Other observations

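A further gene was picked after its values were seen. M6PR, the cation-dependent mannose 6-phosphate receptor that carries lysosomal enzymes, was lower with everolimus (-0.34 ± 0.03 on the log2 scale, adjusted p = 1.8e-07, edgeR) and with SGI-1027 (-0.23 ± 0.03, adjusted p = 1.9e-05), and stood at 0.04 ± 0.03 with both drugs (adjusted p = 0.34). Its interaction was 0.61 ± 0.05 (adjusted p = 2.9e-08). IGF2R, the larger receptor of the same cargo, was at 0.04, 0.21 and 0.36 in the same order (adjusted p = 0.43, 8.3e-05 and 1.2e-07, edgeR). The everolimus dose of the single-drug group is given in 2 ways in the labels, which bears on the interaction value here as well.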
